A study of Mus musculus with 46 samples.

Results

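Orchidectomy (ORX), the surgical removal of the testes, was followed in the gastrocnemius muscle of wild-type (WT) mice by comparing RNA sequencing counts of all measured genes between 6 WT-ORX and 6 WT-sham libraries. These 12 libraries were chosen by their group labels and replicate names alone, out of 46 labelled samples, 45 of which have a column in the count tables. All 12 came from male C57BL6 mice with the WT genotype at *Actn3*, operated on at 8 to 10 weeks of age and studied 12 weeks later. In the ORX group the testes were taken out, and in the SHAM group they were exposed and left in place. The same operations in *Actn3* knockout (KO) males of the strain, 6 KO-sham and 5 KO-ORX libraries, served to test whether the response depended on genotype. A separate experiment on spinalis muscle of WT females of the strain, which carried an empty implant (5 libraries) or one with the androgen dihydrotestosterone (DHT, 6 libraries) from 4 to 5 weeks of age for 6 weeks, gives values to set beside those of ORX. Spinalis libraries of KO females of the strain, 5 with empty and 6 with DHT implants, were fitted with them to estimate the spread. The total counts on genes were between 43408015 and 50273747 counts in the sham mice and between 39882434 and 55369921 in the ORX mice, with no detected difference between the groups (exact permutation p = 0.812). Testosterone from the testes and its product DHT are androgens, steroid hormones that act in the nuclei of muscle fibres to turn genes on and off. Muscle is an androgen target in which loss of the hormone is known for lowering mass, and genes of polyamine synthesis are among its known androgen targets.

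The libraries carried the markers of the labelled tissue at high levels. Of the 10 skeletal muscle markers, *Acta1* had 16423, 17403 and 17715 CPM in the sham mice and 15261, 17203 and 20020 CPM in the ORX mice as the lowest, median and highest library of each group, and *Ckm* had 11253, 12438 and 13177 CPM in the sham mice and 11654, 13785 and 17523 CPM in the ORX mice. All 10 markers had counts in every WT library, and 4 of them (40%, against 5.45% of all genes) passed the edgeR test between ORX and sham, 1 higher (*Mylpf*) and 3 lower (*Myh1*, *Des* and *Mb*). Of these 4, *Myh1* and *Mb* no longer passed when single libraries were left out. *Actn3*, the gene targeted in the KO mice, was at 5977 to 7052 CPM in the WT-sham, 7826 to 9617 in the WT-ORX, 35.8 to 54.8 in the KO-sham and 34.3 to 53.1 in the KO-ORX libraries. In the WT spinalis it was at 8592 to 10353 CPM with empty and 6164 to 7702 CPM with DHT implants. None of these libraries went against its genotype label.

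Removal of the testes changed the level of 955 of 17514 genes (5.45%), more of them downward than upward. With ORX 358 genes rose (2.04% of those tested) and 597 fell (3.41%). A gene was called where q, the adjusted p from edgeR, was 0.01 or less. Alternative fits used another scaling, test, filter or design, or left out 1 library. Fold changes are log2 of ORX over sham with their standard error, and the 3 CPM values (counts relative to the library total after TMM scaling) of a group are its lowest, median and highest library among 6. The changes had a median of 0.47 among the risers and −0.39 among the fallers, against 0.013 over all genes. More than 2-fold changes were seen in 58 risers and 104 fallers, and more than 4-fold changes in 8 and 33. The values of the 6 ORX and 6 sham mice did not overlap for 1057 genes (6.04% of those tested), of which 754 were called. On the first principal component, with 25.5% of the variance, the sham mice lay between −23.2 and −12.7 and the ORX mice between 11.3 and 30.6, so that they separated completely, with sham R6 nearest to the ORX mice. Protein-coding genes made up 850 of the called genes, from 13465 tested, and 8 of 52 small nucleolar RNA genes were called. Risers were 37.5% of the called genes with TMM normalization and 54.4% with scaling by library size, which called 422 genes higher and 354 lower, so the balance of the directions depends on the scaling.

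**Figure D1:**
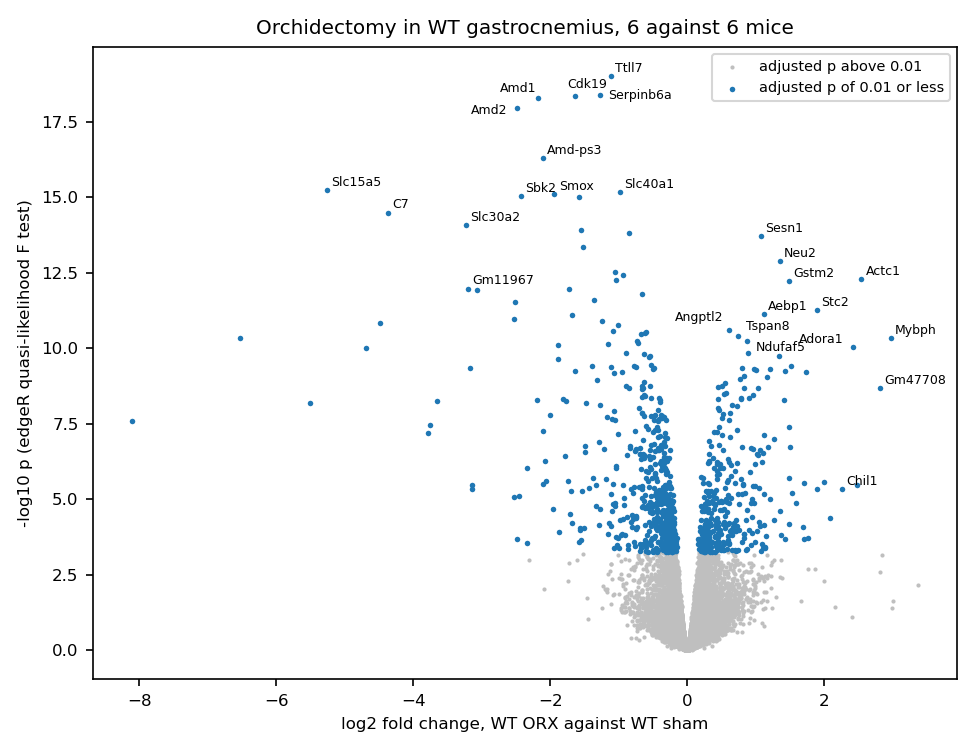
Each point is 1 of 17514 genes, with the log2 fold change of WT-ORX over WT-sham on the horizontal axis and −log10 of the unadjusted edgeR p on the vertical axis. The 955 genes called at q ≤ 0.01 are blue, and names mark genes of the smallest p-values and largest fold changes. *Gm12240*, the point furthest to the left, had 0 counts in every ORX library, so its position is no measured fold.

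Some of the enzymes that make and interconvert polyamines, small charged molecules that cells need for growth, fell with ORX. Of 15 genes in the list 6 fell and 1, *Oaz2*, rose (46.7% called against 5.45% of all genes). Of these 7 calls 2 were lost in at least 1 alternative fit. The list had a median log2 fold change of −0.12. *Amd1* (ENSMUSG00000075232), the S-adenosylmethionine decarboxylase that supplies aminopropyl groups, had 802, 889 and 1081 CPM in the sham mice and 173, 202 and 237 CPM in the ORX mice, a log2 fold change of −2.18 ± 0.092 (q = 2.4e-15). *Odc1* (ENSMUSG00000011179), the ornithine decarboxylase at the entry of the pathway, had 115, 142 and 180.1 CPM in the sham mice and 41.4, 48.6 and 61.7 CPM in the ORX mice, a change of −1.52 ± 0.10 (q = 4.4e-11). *Smox* (ENSMUSG00000027333), the oxidase that turns spermine back into spermidine, had 271, 309 and 428 CPM in the sham mice and 73.2, 81.2 and 96.8 CPM in the ORX mice, a change of −1.94 ± 0.11 (q = 1.6e-12). In all 3 genes every ORX mouse was below every sham mouse. The near-identical copies *Amd2* and *Amd-ps3* fell by 2.49 and 2.11, and since reads could be shared among them and *Amd1*, the separate values of these 3 are uncertain. Both *Amd1* and *Amd2* are among the 6 fallers of the list, so that this count is uncertain too. Scaling by library size gave the list a median of −0.085. Genes of the neighbouring methionine and S-adenosylmethionine cycle gave 1 higher and 3 lower of 18 tested (22.2% called against 5.45% of all genes, median log2 fold change −0.012), a median that turned to 0.017 with library-size scaling. Its members *Mtr*, methionine synthase, and *Adi1*, of the methionine salvage pathway, fell by 0.47 (q = 2.2e-05) and 0.42 (q = 2.0e-05), while *Gamt*, which makes creatine, rose by 0.53 (q = 0.0021). *Mat2a*, the synthase of S-adenosylmethionine, fell by 0.33 (q = 0.0038) but was no longer called without any 1 of sham R3, sham R5, ORX R4 and ORX R6 (q up to 0.013) or with library-size scaling (q = 0.017).

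Genes outside the polyamine list also fell. Some falls, such as those of *Slc15a5*, *C7*, *Slc30a2*, *Gm11967* and *Sbk2*, were larger on the log2 scale than that of *Amd1*. *Slc15a5* (ENSMUSG00000044378), a solute carrier, had 13.1, 15.6 and 19.1 CPM in the sham mice and 0.0411, 0.327 and 0.846 CPM in the ORX mice, a log2 fold change of −5.26 ± 0.30 (q = 1.5e-12). *C7* (ENSMUSG00000079105), a component of the terminal complement complex, had 26.2, 32.1 and 53.8 CPM in the sham mice and 0.985, 1.66 and 2.61 CPM in the ORX mice, a change of −4.37 ± 0.26 (q = 4.7e-12). All ORX libraries of both genes were far below the sham libraries, without overlap. The zinc transporter *Slc30a2* fell by 3.23, the kinase gene *Sbk2* by 2.42 and the predicted gene *Gm11967* by 3.19 (q between 1.6e-12 and 7.4e-10). *Slc40a1* (ENSMUSG00000025993), which codes for the iron exporter ferroportin, had 50.2, 57.2 and 61.6 CPM in the sham mice and 26.4, 28.3 and 32.2 CPM in the ORX mice, a change of −0.98 ± 0.056 (q = 1.5e-12). *Ttll7* (ENSMUSG00000036745), an enzyme that adds glutamate chains to tubulin tails, had 551, 579 and 629.7 CPM in the sham mice and 243, 268 and 296 CPM in the ORX mice, a change of −1.12 ± 0.044 (q = 1.7e-15) and the smallest p of all genes. Its values formed separate groups, and its list of tubulins and tail enzymes otherwise held 1 riser, *Tubb5*, among 24 tested (8.33% called against 5.45% of all genes, median log2 fold change 0.055). *Cdk19*, a kinase of the Mediator complex, fell by 1.63, *Serpinb6a*, a serine protease inhibitor, by 1.27, and the sphingosine-1-phosphate transporter *Spns2* by 1.58 (q = 2.4e-15, 2.4e-15 and 1.6e-12). *Spns2* was highest in sham R5, at 75.7 CPM. Exons of *Serpinb6a*, *Cdk19* and *Spns2* overlap genes on the opposite strand, and although the libraries were prepared with a kit that keeps the strand, the strand setting of the counting is not given in the sources used here, so that their counts are uncertain.

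Among the risers were a heart-type actin and a myosin-binding protein. *Actc1* (ENSMUSG00000068614), cardiac α-actin, which skeletal muscle expresses mainly before birth, had 40.6, 47.6 and 72.3 CPM in the sham mice and 182, 295 and 406 CPM in the ORX mice, a log2 fold change of 2.55 ± 0.19 (q = 4.3e-10). *Mybph* (ENSMUSG00000042451), myosin-binding protein H, had 3.54, 14.9 and 26.4 CPM in the sham mice and 85.6, 124 and 149 CPM in the ORX mice, a change of 2.98 ± 0.28 (q = 1.8e-08). Every ORX mouse was above every sham mouse for both genes, and the sham mice of *Mybph* were themselves spread widely. *Adora1*, the adenosine A1 receptor, overlaps *Mybph* on the opposite strand and rose by 2.43 (q = 3.2e-08), so that the counts of both genes are uncertain in the same way, and its lowest ORX library, R2, stood apart at 2.39 CPM. *Sesn1* (ENSMUSG00000038332), a sestrin that restrains the growth kinase mTORC1, had 23.2, 25.4 and 30.1 CPM in the sham mice and 44.1, 55.6 and 58.4 CPM in the ORX mice, a change of 1.08 ± 0.071 (q = 2.1e-11). *Stc2* (ENSMUSG00000020303), the secreted glycoprotein stanniocalcin-2, had 1.48, 1.84 and 2.45 CPM in the sham mice and 5.50, 7.09 and 8.76 CPM in the ORX mice, a change of 1.89 ± 0.16 (q = 3.2e-09). Neither gene overlapped between the groups, and ORX R4 was the low library of *Sesn1* at 44.1 CPM. The cytosolic sialidase gene *Neu2* rose by 1.36 and the glutathione transferase gene *Gstm2* by 1.49, each with 1 low library, ORX R2 at 14.7 CPM for *Neu2* and sham R5 at 14.4 CPM for *Gstm2*. *Aebp1*, which codes for a matrix-associated carboxypeptidase-like protein, rose by 1.13, the complex I assembly factor *Ndufaf5* by 0.88, the tetraspanin *Tspan8* by 0.74 and the secreted *Angptl2* by 0.61 (q between 1.3e-10 and 2.2e-08 for these 6). Low-level risers with large fold changes were *Gm47708*, at a median of 0.541 CPM in sham and 3.40 CPM in ORX mice, and the chitinase-like *Chil1*, at 0.324 and 1.08 CPM. They rose by 2.82 (q = 4.0e-07) and 2.27 (q = 2.5e-04). The medians of *Chil1* alone lie closer together than its fitted change.

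**Figure D2:**
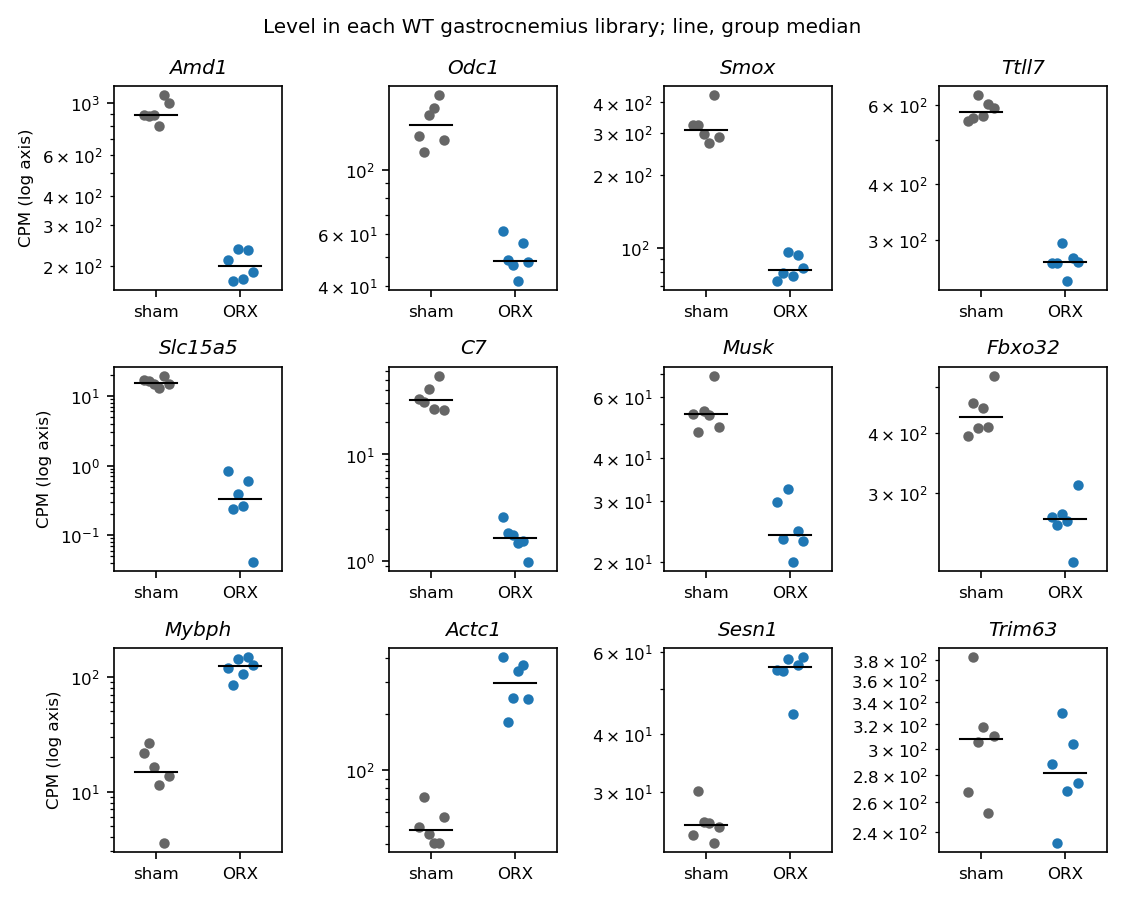
Each point is the level of 1 gene in 1 WT gastrocnemius library, in CPM on a log axis that differs between panels, and each line is the median of 6 libraries. *Amd1*, *Odc1*, *Smox*, *Ttll7*, *Slc15a5*, *C7*, *Musk* and *Fbxo32* were lower in every ORX mouse, *Mybph*, *Actc1* and *Sesn1* were higher in every ORX mouse, and *Trim63* overlapped between the groups.

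Genes of the contractile apparatus moved in both directions. The list of fast-fibre genes gave 3 higher and 1 lower of 14 tested (0 to 1 lower with 1 library left out, 28.6% called against 5.45% of all genes, median log2 fold change 0.094). *Mylpf* (ENSMUSG00000030672), the fast regulatory light chain, had 8313, 8508 and 9362 CPM in the sham mice and 9736, 11583 and 13696 CPM in the ORX mice, a log2 fold change of 0.44 ± 0.071 (q = 1.0e-04). *Actn3*, the fast-fibre α-actinin of the Z-disc, rose by 0.42 ± 0.088 (q = 0.0020), and the calcium buffer *Pvalb* by 0.29 ± 0.064 (q = 0.0030). Both genes separated the groups without overlap. *Myh1*, the myosin of type 2X fibres, had 2018, 2881 and 4068 CPM in the sham mice and 1588, 1888 and 2223 CPM in the ORX mice and a change of −0.61 ± 0.14 (q = 0.0050), with overlapping groups. It overlaps the antisense gene *Myhas* and was no longer called without any 1 of sham R1, ORX R2, ORX R3, ORX R5 and ORX R6 (q up to 0.020). The slow-fibre list gave 1 higher and 0 lower of 13 tested (0 to 1 higher with 1 library left out, 7.69% called against 5.45% of all genes, median log2 fold change 0.30), its slow myosin *Myh7* had a change of 0.30 (q = 0.365) with overlapping groups, and *Casq2*, the calsequestrin of slow and cardiac muscle, rose by 0.43 (q = 0.0090) but lost its call without any 1 library other than sham R2 and ORX R6 (q up to 0.029). In the developmental list, besides *Actc1*, the embryonic light chain *Myl4* rose by 0.96 ± 0.16 (q = 2.1e-04), and 3 of 5 tested genes were not called (median −0.069). Z-disc and costamere genes gave 4 higher and 3 lower of 31 tested (22.6% called, median log2 fold change −0.0055), a median that turned to 0.034 with library-size scaling. There *Pdlim5* fell by 0.53 (q = 2.3e-06) and desmin, *Des*, by 0.31 (q = 5.7e-04), while *Pdlim7* rose by 0.31 with overlapping groups and *Synpo2l* by 0.28 (q = 5.6e-04 and 0.0016).

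Genes of calcium signalling and of nerve contact changed in both directions. Genes of calcium release and reuptake gave 4 higher and 2 lower of 24 tested (1 to 3 higher and 1 to 2 lower with 1 library left out, 25% called against 5.45% of all genes, median log2 fold change 0.078). *Itpr1*, the inositol trisphosphate receptor, fell by 0.46 (q = 2.3e-06), and *Mrln*, the small peptide that inhibits the calcium pump, fell by 0.45 (q = 0.0080) but lost its call without any 1 library other than sham R1, sham R4 and ORX R3 (q up to 0.022) or with library-size scaling (q = 0.025). *Cacnb1*, a subunit of the voltage sensor, rose by 0.29 and lost its call without any 1 of sham R3, sham R4, sham R5, ORX R3 and ORX R5 (q up to 0.014). For calcineurin and its NFAT targets the count was 1 higher and 1 lower of 15 tested (13.3% called, median log2 fold change −0.044). *Ppp3ca* (ENSMUSG00000028161), its catalytic subunit, had 199.9, 218 and 224 CPM in the sham mice and 287, 293 and 303 CPM in the ORX mice, a change of 0.45 ± 0.050 (q = 3.8e-07), without overlap. *Rcan2*, a calcineurin regulator, fell by 0.65 ± 0.073 (q = 4.1e-07), with ORX R6 lowest at 26.4 CPM, whereas *Rcan1* had a change of −0.13 (q = 0.652). Genes of the neuromuscular junction and of denervation gave 2 higher and 1 lower of 19 tested (0 to 2 higher with 1 library left out, 15.8% called, median log2 fold change 0.11). *Musk* (ENSMUSG00000057280), the receptor kinase that clusters acetylcholine receptors, had 47.3, 53.3 and 68.7 CPM in the sham mice and 19.9, 24.0 and 32.3 CPM in the ORX mice, a change of −1.09 ± 0.14 (q = 2.7e-06), again without overlap. The receptor subunit *Chrnb1* rose by 0.34 and *Gadd45a*, a gene induced by denervation, by 0.66, calls that were lost for *Chrnb1* without any 1 library other than sham R3, sham R6, ORX R1, ORX R2 and ORX R5 (q up to 0.020) or with a replicate block (q = 0.011) and for *Gadd45a* without any 1 of sham R4, sham R5, ORX R3 and ORX R5 (q up to 0.013). Myogenic and satellite cell genes gave 2 higher and 1 lower of 20 tested (15% called, median log2 fold change 0.14), with *Myog* higher by 0.80 ± 0.14 (q = 3.3e-04), *Myf6* lower with a change of −0.31 (q = 1.9e-04) and *Tceal7*, which overlaps *Bex1* on the opposite strand, higher by 0.88.

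Of 33 genes of fatty acid uptake and oxidation 8 fell and 0 rose (24.2% called against 5.45% of all genes). A negative fold change was seen in 30 of them (90.9%), against 46.8% of all genes. Of the 8 calls 4 were lost in at least 1 alternative fit, and the count of fallers was 5 without ORX R6, sham R1 or sham R2 and 11 without sham R5. The median of the list was −0.25, against 0.013 for all genes, and −0.21 with library-size scaling. *Acsl1* (ENSMUSG00000018796), which activates fatty acids, had 278, 314 and 394 CPM in the sham mice and 209, 226 and 246 CPM in the ORX mice, a log2 fold change of −0.50 ± 0.074 (q = 3.2e-05). *Acadvl* (ENSMUSG00000018574), the very long chain acyl-CoA dehydrogenase, had 158, 185 and 213 CPM in the sham mice and 124, 139 and 154 CPM in the ORX mice, a change of −0.44 ± 0.073 (q = 1.5e-04). Both genes separated the groups, as did *Hadh* and *Etfdh*, further enzymes of the pathway, which fell by 0.36 and 0.35 (q = 3.6e-04 and 4.7e-04). The tricarboxylic acid cycle and pyruvate entry gave 0 higher and 5 lower of 24 tested (2 to 5 lower with 1 library left out, 20.8% called against 5.45% of all genes, median log2 fold change −0.12). *Pdha1*, of the pyruvate dehydrogenase complex, fell by 0.31 (q = 7.4e-05) and *Mpc2*, of the pyruvate carrier, by 0.35 (q = 5.7e-04), with ORX R6 lowest at 139.5 CPM, while *Dlat* (sham R5 apart at 137 CPM) and *Pdhx* fell by 0.23 and 0.23, with overlapping groups. The call of *Dlat* was lost without any 1 library other than sham R5, ORX R1 and ORX R5 (q up to 0.023), with library-size scaling (q = 0.036) or in the fit of the WT groups alone (q = 0.016). That of *Pdhx* was lost without any 1 of sham R1, sham R2, sham R3, ORX R4 and ORX R6 (q up to 0.015) or with library-size scaling (q = 0.030). Nuclear genes of complex I gave 0 higher and 2 lower of 36 tested (1 to 2 lower with 1 library left out, 5.56% called against 5.45% of all genes, median log2 fold change −0.025), a median that turned to 0.014 with library-size scaling, and those of complexes III to V gave 0 higher and 5 lower of 38 tested (1 to 8 lower with 1 library left out, 13.2% called, median log2 fold change −0.057). The latter count was 1 without ORX R6 or sham R2 and 8 without sham R5, and 4 of its 5 calls were lost without at least 1 library. The call that was kept in every such fit was that of *Cox5a*, a complex IV subunit whose groups overlapped, which fell by 0.31 (q = 0.0018).

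Of the 9 mitochondrially encoded genes in the table, out of 15 listed, *mt-Co1* fell, by 0.32 ± 0.064 (q = 0.0011), and all 9 had negative fold changes, with a median of −0.25. Mitochondrially encoded genes took 14.5% of the counts in the median sham and 12.1% in the median ORX library (exact permutation p = 0.0325, adjusted p = 0.260 over 16 library measures), and the part of this difference in the results of other genes was not tested. Genes of the PGC-1 and ERR regulators gave 0 higher and 1 lower of 15 tested (6.67% called against 5.45% of all genes, median log2 fold change −0.11). *Esrra*, the receptor ERRα that turns on oxidative genes, fell by 0.40 ± 0.058 (q = 2.0e-05), and *Ppargc1a*, the coactivator PGC-1α, had a change of −0.14 (q = 0.234). Glycolysis and glycogen genes gave 1 higher and 5 lower of 34 tested (1 to 4 higher with 1 library left out, 17.6% called, median log2 fold change −0.054). *Gbe1*, the glycogen branching enzyme, had 68.6, 74.1 and 85.2 CPM in the sham mice and 48.1, 49.1 and 52.9 CPM in the ORX mice, a change of −0.62 ± 0.071 (q = 7.0e-07), without overlap. Hexokinase 2, *Hk2*, fell by 0.44 (q = 0.0014), with sham R1 highest at 474 CPM, whereas the mitochondrial glycerophosphate dehydrogenase gene *Gpd2* rose by 0.48 (q = 4.9e-05). Myoglobin, *Mb*, fell by 0.50 and lost its call without any 1 library other than sham R5, sham R6, ORX R3 and ORX R4 (q up to 0.029) or with library-size scaling (q = 0.014).

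A gene known for its rise in muscle atrophy fell with ORX. *Fbxo32* (ENSMUSG00000022358), the muscle ubiquitin ligase atrogin-1, had 394, 431 and 526 CPM in the sham mice and 214, 265 and 312 CPM in the ORX mice, a log2 fold change of −0.75 ± 0.11 (q = 1.9e-05), and every ORX mouse was below every sham mouse. The other ligase best known from atrophy, *Trim63* or MuRF1, had 253, 308 and 383 CPM in the sham mice and 233, 281 and 330.0 CPM in the ORX mice, a change of −0.11 (q = 0.497) with overlapping groups. The related *Trim54* fell by 0.27 and *Trim55* rose by 0.27, and the list of ligases and FOXO factors gave 2 higher and 4 lower of 24 tested (25% called against 5.45% of all genes, median log2 fold change −0.032), a median that turned to 0.0068 with library-size scaling. Proteasome genes gave 1 higher and 2 lower of 38 tested (0 to 1 higher with 1 library left out, 7.89% called against 5.45% of all genes, median log2 fold change 0.0046), a median that turned to −0.00037 with RLE size factors and −0.00022 with DESeq2. *Psmd8* (ENSMUSG00000030591), a subunit of the regulatory particle, had 194, 217 and 226 CPM in the sham mice and 111, 120.0 and 127 CPM in the ORX mice, a change of −0.84 ± 0.055 (q = 1.8e-11), without overlap. *Psme4*, a proteasome activator, fell by 0.37 (q = 2.3e-06). The riser of the list, *Psmc3*, an ATPase of the regulatory particle, had a change of 0.16 (q = 0.0064). This call was lost without any 1 library other than sham R4, ORX R1, ORX R2 and ORX R5 (q up to 0.022) or in the fit of the WT groups alone (q = 0.016). Autophagy and lysosome genes gave 2 higher and 3 lower of 29 tested (17.2% called, median log2 fold change 0.024). *Map1lc3a* (ENSMUSG00000027602), a protein of the autophagosome membrane, had 96.4, 111 and 115 CPM in the sham mice and 68.5, 74.3 and 78.8 CPM in the ORX mice, a change of −0.55 ± 0.055 (q = 6.1e-08), without overlap. *Ctsd*, a lysosomal protease, fell by 0.30, *Ctsl*, another, rose by 0.30 and the mitophagy kinase *Pink1* rose by 0.46, with ORX R6 highest at 943 CPM. The autophagy receptor *Sqstm1* had a change of −0.23 at q = 0.0103, just short of a call, and was called with RLE size factors (q = 0.0095), by DESeq2 (q = 0.0025), by limma-voom (q = 0.0068), with a replicate block (q = 0.0034) and without ORX R6 (q = 0.0038).

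Genes of growth signalling and of synthesis changed in both directions. The list of IGF1, AKT and mTOR genes gave 2 higher and 2 lower of 27 tested (1 to 2 higher and 1 to 2 lower with 1 library left out, 14.8% called against 5.45% of all genes, median log2 fold change 0.053). *Grb10*, an adaptor that restrains insulin and IGF1 receptors, rose by 0.73 ± 0.097 (q = 5.6e-06), and *Igf1* itself had 36.9, 39.4 and 56.3 CPM in the sham mice and 37.3, 41.9 and 49.0 CPM in the ORX mice, a change of 0.028 (q = 0.918). Sham R5 stood apart for *Igf1* at 56.3 CPM. *Deptor*, an inhibitor of mTOR, rose by 0.35. Its call was lost without any 1 library other than sham R1, sham R5, ORX R1, ORX R2 and ORX R5 (q up to 0.019). *Igfbp6*, an IGF binding protein, fell by 0.32. Its call was lost without any 1 of sham R2, sham R4, sham R5, ORX R1, ORX R3 and ORX R4 (q up to 0.026), with library-size scaling (q = 0.067) or in the fit of the WT groups alone (q = 0.015). Myostatin, activin and BMP genes gave 0 higher and 2 lower of 28 tested (7.14% called against 5.45% of all genes, median log2 fold change −0.059). *Bmpr1b*, a BMP receptor, fell by 0.40 (q = 5.3e-04) and *Smad3* by 0.35 (q = 0.0021), a call lost with library-size scaling (q = 0.016), while *Mstn*, myostatin, had a change of −0.40 (q = 0.016) and was called by DESeq2 (q = 0.0038) and in the fit of the WT groups alone (q = 0.0071). Cytosolic ribosomal protein genes gave 5 higher and 0 lower of 76 tested (0 to 7 higher with 1 library left out, 6.58% called against 5.45% of all genes, median log2 fold change 0.13) with 23.7% of them below 0, against 46.8% of all genes. The count of risers was 0 without ORX R3, ORX R4 or sham R3 and 7 without ORX R6, and the 4 named risers were *Rpl3*, *Rpl4*, *Rpl29* and *Rpsa*. The call was lost for *Rpl3* without any 1 library other than sham R2, sham R5, ORX R1, ORX R5 and ORX R6 (q up to 0.024), in the fit of the WT groups alone (q = 0.016) or with a replicate block (q = 0.0105). It was lost for *Rpl4* without any 1 library other than ORX R1, ORX R2 and ORX R6 (q up to 0.032), with RLE size factors (q = 0.011) or in the fit of the WT groups alone (q = 0.014). For *Rpl29* it was lost without any 1 of sham R3, sham R5, ORX R3 and ORX R4 (q up to 0.018) or in the fit of the WT groups alone (q = 0.020) and for *Rpsa* without any 1 library other than sham R2, ORX R1, ORX R2, ORX R5 and ORX R6 (q up to 0.028) or in the fit of the WT groups alone (q = 0.014). Amino acid transporters gave 1 higher and 2 lower of 23 tested (1 to 2 lower with 1 library left out, 13.0% called, median log2 fold change −0.053). The transporter *Slc38a4* had 155, 175 and 206 CPM in the sham mice and 69.3, 92.9 and 121 CPM in the ORX mice, a change of −0.95 ± 0.10 (q = 1.5e-07), without overlap, and *Slc7a2*, for cationic amino acids, rose by 0.58 (q = 5.4e-04). Genes of ATF4 and serine synthesis gave 1 higher and 1 lower of 16 tested (0 to 1 higher with 1 library left out, 12.5% called, median log2 fold change −0.0084), a median that turned to 0.031 with library-size scaling, and *Mthfd2*, a mitochondrial folate enzyme, fell by 0.82 (q = 0.0019). Branched-chain amino acid breakdown gave 1 higher and 1 lower of 19 tested (1 to 4 higher with 1 library left out, 10.5% called, median log2 fold change 0.097). In the purine nucleotide and creatine list, with 3 higher and 1 lower of 14 tested (28.6% called, median log2 fold change 0.049), *Ckmt2*, the mitochondrial creatine kinase, had 910.3, 939.8 and 1149 CPM in the sham mice and 546, 652 and 685 CPM in the ORX mice, a change of −0.63 ± 0.079 (q = 2.3e-06), and *Ampd1*, the muscle AMP deaminase, had 844, 929 and 1051 CPM in the sham mice and 1162, 1304 and 1374 CPM in the ORX mice, a change of 0.47 ± 0.062 (q = 4.9e-06). Neither gene overlapped, and the lowest ORX libraries, R6 for *Ckmt2* at 546 CPM and R2 for *Ampd1* at 1162 CPM, stood apart from the rest.

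Of 18 hormone receptor and coregulator genes 2 were called (11.1%, against 5.45% of all genes), both higher. In this list (median log2 fold change 0.0048, turning to −0.00028 with RLE size factors and −0.00063 with DESeq2), *Esr1*, an oestrogen receptor, rose on the log2 scale by 0.56 ± 0.064 (q = 5.5e-07) without overlap and *Nr3c1*, the glucocorticoid receptor, by 0.19 (q = 0.0069), a call lost without any 1 library other than sham R2, sham R3, ORX R2 and ORX R4 (q up to 0.023), with library-size scaling (q = 0.012), in the fit of the WT groups alone (q = 0.0101) or with a replicate block (q = 0.014). None of 12 glucocorticoid-responsive genes was called by edgeR (median −0.054), 1 had an unadjusted p under 0.05, and DESeq2 called 1 and limma-voom 0. In further lists, 2 of 20 heat shock genes (median −0.023, 0.014 with library-size scaling), 1 of 19 clock genes (*Bhlhe41*) and 1 of 14 lipogenesis genes (*Dgat2*) were called lower, against 3.41% of all genes. *Dgat2*, which makes triglyceride, fell by 0.54 and lost its call without any 1 of sham R1, sham R2, sham R3, sham R4, ORX R3 and ORX R6 (q up to 0.020) or with library-size scaling (q = 0.011). Of 29 collagen and matrix genes 2 were called (6.90%, against 5.45% of all genes), and the median was −0.025, or 0.016 with library-size scaling. These were *Col14a1* and *Postn*, which code for a fibril-associated collagen and a matrix protein and rose by 0.98 ± 0.10 (q = 1.2e-07) and 0.61 ± 0.093 (q = 4.2e-05). Of 18 interferon and antigen presentation genes 1 was called (5.56%, against 5.45% of all genes). This gene, *Cd74*, rose by 0.49 and lost its call without any 1 library other than sham R6 and ORX R1 (q up to 0.028), with library-size scaling (q = 0.013) or in the fit of the WT groups alone (q = 0.013). In the cell cycle list edgeR called 0 of 12 genes (median 0.24), 4 had an unadjusted p under 0.05, and DESeq2 called 1 and limma-voom 0.

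**Figure D3:**
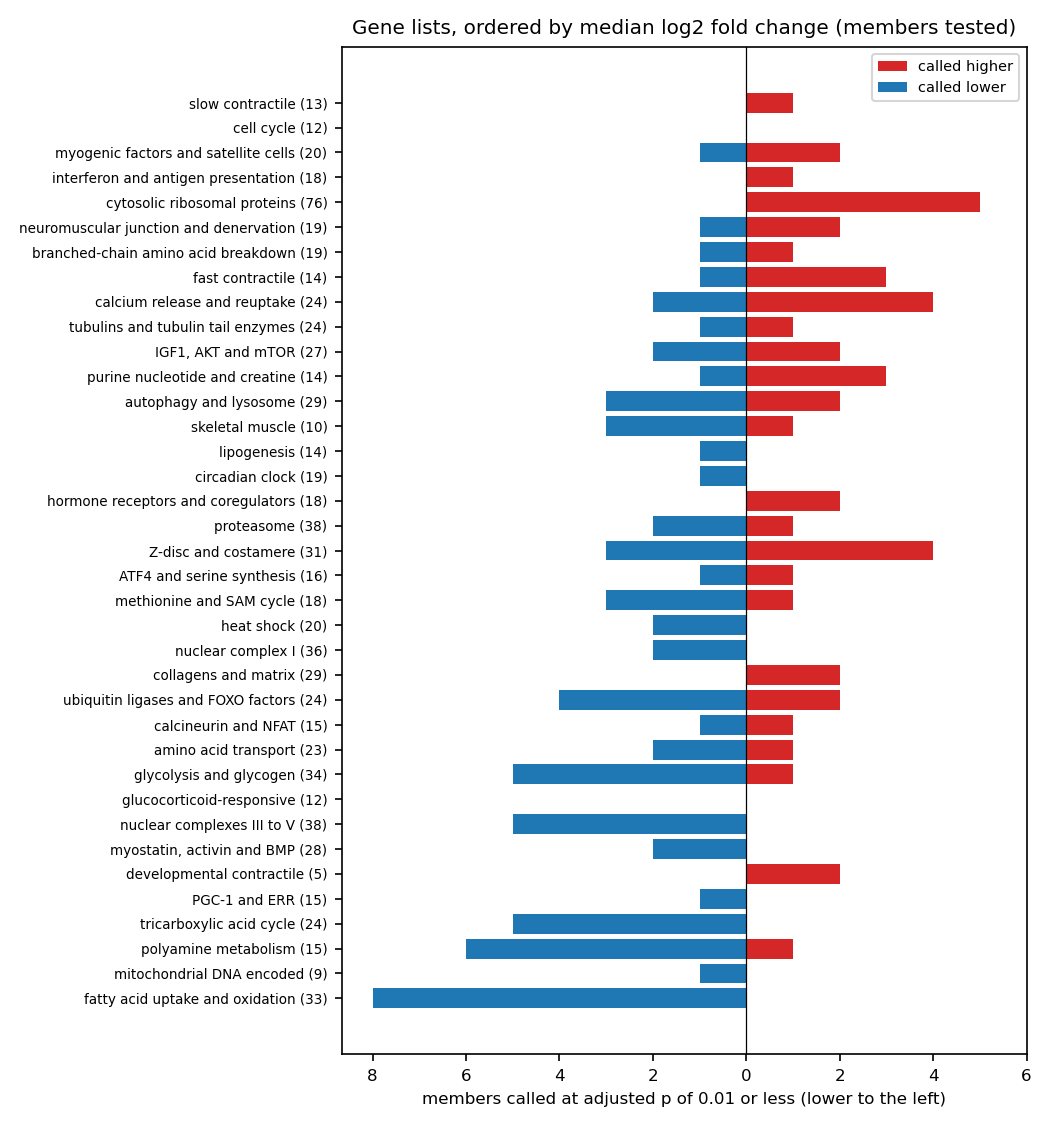
Each row is a list of genes with the number tested in brackets, and bars show how many members were called higher (to the right) or lower (to the left) at q ≤ 0.01. Rows are in order of the median log2 fold change. Fatty acid use, at −0.25, had 8 members lower and 0 higher (24.2% called against 5.45% of all genes). The sign of the median flips with library-size scaling for the complex I, Z-disc, ubiquitin ligase, ATF4, heat shock, collagen and methionine lists, and with RLE size factors and DESeq2 for the proteasome and hormone receptor lists.

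Markers of other cell types were compared for the same libraries, with each sum given as the median of its group. In whole muscle, fewer cells of a type and less RNA per cell cannot be told apart. The 8 macrophage markers summed to 248 CPM in the sham and 217 CPM in the ORX mice, led by *Lyz2*, and the difference of the sums did not pass adjustment (exact permutation p = 0.0238, adjusted p = 0.260 over 16 measures). *Csf1r* among them, a growth factor receptor, fell by 0.31 by edgeR and lost its call without any 1 of sham R2, sham R5, sham R6, ORX R3, ORX R5 and ORX R6 (q up to 0.013) or with library-size scaling (q = 0.038). The 8 fibroblast markers, led by *Dcn*, summed to 2122 CPM in the sham and 1984 CPM in the ORX mice (exact permutation p = 0.299), with *Lum* higher by 0.59 and *Pdgfra*, with ORX R4 apart at 63.5 CPM, lower by a change of −0.23 whose call was lost without any 1 library other than ORX R3 (q up to 0.033), with library-size scaling (q = 0.080) or with a replicate block (q = 0.019). Sums were 362 CPM in the sham and 318 CPM in the ORX mice for 9 adipocyte markers, led by *Fabp4*, and 257 CPM in the sham and 267 CPM in the ORX mice for 8 endothelial markers, led by *Pecam1*. Those of 6 smooth muscle and pericyte, 6 tendon and 6 Schwann cell markers, led by *Rgs5*, *Thbs4* and *Mbp*, were 634 CPM in the sham and 622 CPM in the ORX mice, 488 CPM in the sham and 552 CPM in the ORX mice and 59.8 CPM in the sham and 52.9 CPM in the ORX mice. For 5 erythroid markers, led by *Hbb-bs*, and 5 satellite cell markers, led by *Cdh15*, they were 405 CPM in the sham and 279 CPM in the ORX mice and 17.9 CPM in the sham and 17.4 CPM in the ORX mice. By group means the order turned for the endothelial markers, at 272 CPM in the sham and 268 CPM in the ORX mice. It also turned for the satellite cell markers, at 17.5 CPM in the sham and 17.9 CPM in the ORX mice. Of 8 T and B cell markers only *Cd3e* had a row in the table, at a median of 1.32 and 1.33 CPM, and of 4 neutrophil markers 2 had, led by *Csf3r*, with median sums of 0.783 and 0.396 CPM. Other than *Csf1r*, *Lum* and *Pdgfra* no marker of another cell type was called by edgeR, which called 5.45% of all genes. In the marker lists without a call DESeq2 called 1, in the satellite cell list, and limma-voom 0, while 5 markers had an unadjusted p under 0.05 (1 neutrophil, 2 erythroid and 2 satellite cell). No marker sum passed adjustment, and the smallest exact p that 6 against 6 mice allow is 0.00216. Each marker in the table had counts in every WT library. Sham R5 stood apart with the highest fibroblast and tendon sums. The part of these cell types in the results was not tested.

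The response was compared with that of *Actn3* KO mice, which share no mice with the WT groups. ORX called 975 genes in KO (5.57% of those tested), 439 of which were also called in WT, 46.0% of the WT and 45.0% of the KO calls. The KO count was 589 without KO-ORX R4 and 606 without KO-ORX R5, and these shares were not recomputed with a library left out. Of the genes called in WT, 904 (94.7%) had the same sign in KO, against 65.4% of all genes. Side by side, WT and KO changes were −5.26 and −4.01 for *Slc15a5*, −4.37 and −3.71 for *C7*, 1.08 and 1.06 for *Sesn1*, 2.55 and 1.34 for *Actc1*, and −0.75 and −0.52 for *Fbxo32*. Some genes called in WT were not called in KO, with changes of 0.47 and 0.028 for *Ampd1*, −0.46 and −0.035 for *Itpr1*, and 0.46 and 0.076 for *Pink1*. The test of the difference between the genotypes called 4 genes at q ≤ 0.05 by edgeR (0.0228%), *Ttll7*, *Snora78*, *Spns2* and *Efcab6*, and 1683 genes had an unadjusted p under 0.05. *Ttll7* fell by 1.12 in WT and its KO change was −0.58, while *Spns2* fell by 1.58 with a KO change of −0.81. *Snora78*, a small nucleolar RNA gene, fell in WT by 0.94 ± 0.16 (q = 1.9e-04) and its KO change was 0.42. *Efcab6*, with ORX R3 apart at 15.8 CPM, had a WT change of 0.18 (q = 0.027), called with library-size scaling (q = 0.0081), and a KO change of −0.26. The difference was no longer called for *Spns2* without any 1 of ORX R4, KO-ORX R1 and KO-sham R6 (q up to 0.056), for *Snora78* with a replicate block (q = 0.0503) and for *Efcab6* without any 1 of ORX R3, ORX R4, sham R3, KO-ORX R1, KO-ORX R2, KO-sham R1, KO-sham R3 and KO-sham R6 (q up to 0.069) or with library-size scaling (q = 0.074). The count of 4 was 24 without ORX R2, 2 without ORX R4, and 8, 9, 7 and 8 without sham R1, R2, R4 and R6 of the WT. Among the KO libraries it was 38 without KO-ORX R3, and 9, 7, 10 and 2 without KO-sham R2, R4, R5 and R6. DESeq2 called 120 and limma-voom 10, so it depends on single libraries and on the test. For the other named genes edgeR detected no difference between the genotypes at q ≤ 0.05, which does not show that the responses were alike. Of these 125 genes DESeq2 called 12 and limma-voom 3, the latter being *Mybph*, *Itpr1* and *Ampd1*, at q = 0.060, 0.059 and 0.059 by edgeR.

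The DHT implant in female spinalis adds androgen where ORX removes it, and the sex, the muscle, the age and the duration all differ between the experiments, so that no test was made between them. DHT called 1914 of 16987 genes (11.3%). Of the 947 ORX genes tested in that table, 886 (93.6%) had opposite signs in the experiments, against 64.3% of all 16642 genes in both tables. Both experiments called 574 genes, 60.6% of these 947 ORX calls and 30.7% of the 1870 DHT calls that were tested with ORX, and 565 of them moved in opposite directions. A group of 297 genes was called with ORX in both genotypes and in the opposite direction with DHT, 226 of them lower and 71 higher with ORX. The ORX and DHT changes were −2.18 and 3.45 for *Amd1*, −3.23 and 5.02 for *Slc30a2*, −1.09 and 2.04 for *Musk*, 2.98 and −4.59 for *Mybph*, and 1.89 and −3.86 for *Stc2*. Some genes that ORX changed had no detected change with DHT, such as *Gbe1* (0.082, q = 0.529), *Acadvl* (0.062, q = 0.657) and *Mylpf* (0.011, q = 0.943). For the fatty acid list the medians were −0.25 with ORX and 0.10 with DHT. The 9 genes called in the same direction in both, named after their values were seen, were *Oaz2*, *Gm13943*, *Plekha2* and *Tpd52l1*, higher in both, and *Kmt5a*, *Gpx3*, *Ano5*, *Gm26448* and *Pdgfra*, lower in both. *Gpx3*, the secreted glutathione peroxidase, fell by 0.65 with ORX and by 1.07 with DHT, and *Oaz2*, an inhibitor of ornithine decarboxylase, rose by 0.27 and 0.31. Library-size scaling called 4 genes in the same direction, 3 of them among these 9, and leaving out sham R2, sham R3, the DHT library 5KR or the empty implant library 4KR called 5, all among these 9.

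**Figure D4:**
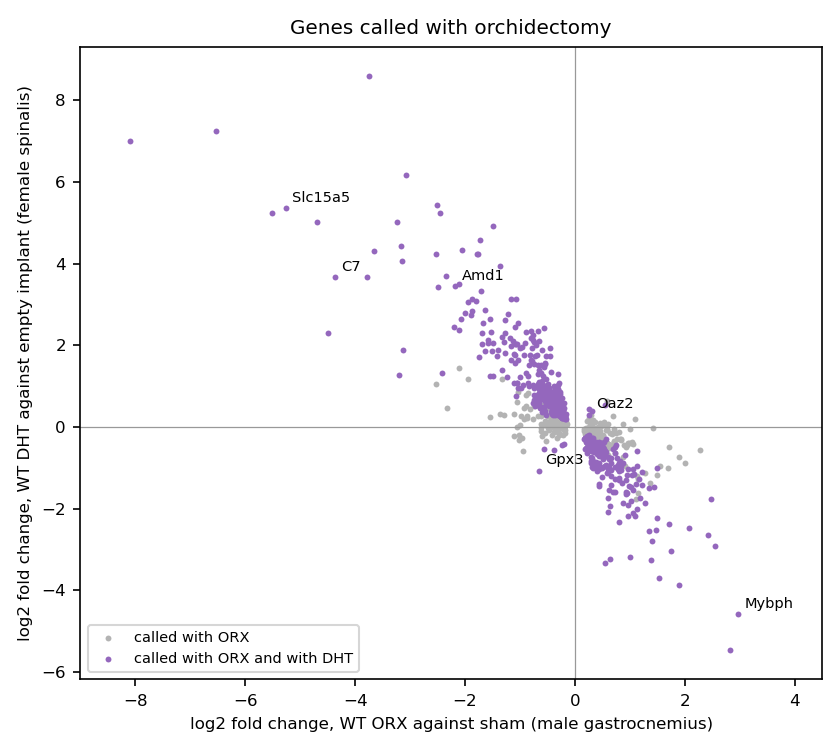
Each point is 1 of 947 genes called with ORX in WT gastrocnemius, with its log2 fold change for ORX over sham (horizontal) and for DHT over empty implant in WT spinalis (vertical). Purple points, 574 genes, were also called with DHT, and 565 of them lie in the upper left and lower right fields. The point furthest to the left is *Gm12240*, with 0 counts in every ORX library and so no measured fold.

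Androgen response elements in DNA are known as pairs of the hexamer AGAACA or close variants of it. Windows of 30 bases around AGAACA or its reverse complement TGTTCT (in capitals, both strands searched) are shown for every named gene that was called and held the hexamer, with 12 bases on each side, wholly before its start. Promoters were those of RefSeq on GRCm38.p6, from 250 bases before to 50 after the start of a gene. Of 32851 such promoters 6233 (19.0%) held the hexamer, and 3 held AGAACA, any 3 bases and TGTTCT in a row. Of 120 named genes that were called, 87 had a promoter in that set and 11 gave a window. Since 64.3% of the genes tested matched a promoter, a comparison of called with other genes is void. The windows lie at chr2:140170420-140170449 (+ strand) for *Ndufaf5*, chr3:131272298-131272327 (- strand) for *Hadh*, chr5:31116378-31116407 (+ strand) for *Trim54*, chr5:116422975-116423004 (- strand) for *Hspb8*, chr7:127211472-127211501 (+ strand) for *Mylpf*, chr10:70204430-70204459 (+ strand) for *Mrln*, chr10:70204474-70204503 (+ strand) for *Mrln*, chr10:95731131-95731160 (+ strand) for *Gm47708*, chr11:104550559-104550588 (+ strand) for *Myl4*, chr13:114388142-114388171 (- strand) for *Ndufs4*, chr14:20664583-20664612 (- strand) for *Synpo2l* and chr15:97020450-97020479 (- strand) for *Slc38a4*. Among these genes the call was lost for *Hspb8* with library-size scaling (q = 0.038) and for *Ndufs4* without any 1 of sham R2, sham R3, sham R5, ORX R1 and ORX R6 (q up to 0.014) or with library-size scaling (q = 0.018). A match is a description of the letters alone.
Ndufaf5: gcagctctgaagAGAACAatgaggccagaa
Hadh: tttcccttcctgTGTTCTctatccggggtt
Trim54: aggtcccaagccAGAACAtggagaccaatg
Hspb8: ccagagcccagtTGTTCTctcagcggattc
Mylpf: cctttgggagaaAGAACAtcccttcctacc
Mrln at base 70204430: gagaaggggctaTGTTCTcacagtggagga
Mrln at base 70204474: tgctgatagtttAGAACAgctaccatgggg
Gm47708: agaaagagaaccAGAACAgcgtgtgcagta
Myl4: gagagagaaacgAGAACAagacggaaaagc
Ndufs4: aggaaaacaaacAGAACAtgcctctgtttc
Synpo2l: gggaggggggcaTGTTCTaaaaacagccca
Slc38a4: ttaaggcactaaTGTTCTttctagctgctg

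The calls rest on 6 mice per group and on RNA levels from whole muscle. Without any one of the 12 libraries between 732 and 867 genes were called, and 632 of the 955 were called in every such fit. Exons of *Neu2*, *Tspan8*, *Itpr1*, *Ckmt2*, *Fbxo32*, *Esrra*, *Acsl1*, *Gpd2*, *Pdha1*, *Acadvl*, *Myl4*, *Ctsl*, *Etfdh*, *Trim54*, *Slc7a2*, *Des*, *Bhlhe41*, *mt-Co1*, *Cox5a*, *Mat2a*, *Gadd45a*, *Cacnb1*, *Csf1r*, *Deptor*, *Psmc3*, *Mb*, *Pdgfra*, *Sqstm1* and *Myh7* also overlap genes on the opposite strand in the GRCm38 annotation, and their counts are uncertain in the same way. Those of *Pink1*, *Esrra*, *Ctsd*, *Ctsl*, *Pdlim7*, *Rpl3*, *Rpsa*, *Rpl4*, *Cd74* and *Pdgfra* overlap genes on the same strand, so that reads could be shared.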

How the data were processed

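RNA-seq counts per gene, as deposited by the authors, were used; per the submitters' processing notes the tools were STAR 2.7.1b, SAMtools 1.9, Picard 2.20.2 and Subread 2.0.0 on GRCm39. The sixth KO-ORX sample was not analysed here. Genes with 0.5 CPM in at least 2 libraries were kept, which removed 0 genes. The 4 gastrocnemius groups were fitted together in edgeR 4.0.16 (R 4.3.3) with TMM factors and quasi-likelihood F tests, with p-values adjusted by the Benjamini-Hochberg method across every gene tested. The threshold was 0.01, and 0.05 for the difference between genotypes. SE is the absolute log2 fold change over the square root of F. The 4 spinalis groups, WT and KO with empty or DHT implants, were fitted together in a separate fit. Alternatives used RLE factors, library size, DESeq2 1.42.0, limma-voom (limma 3.58.1), 10 counts in every library, no filter, the WT groups alone, a replicate block, other thresholds and each WT library left out, and, chosen after seeing the data, each KO gastrocnemius library. Named genes were, in each direction, the 10 of smallest p without overlap and the 5 of largest fold with a mean of at least 1 CPM, up to 4 called genes per list, a few fixed genes and those of the interaction. Some genes that this rule names are not reported here. Members and lists were chosen with earlier results of these data known. Of 17514 gene IDs, 81 had no match to a name. Library measures were tested by exact 2-sided permutation (scipy 1.17.1, Python 3.11.15, pandas 2.3.3, matplotlib 3.10.9). No promoter windows were taken from chromosome 18. The code was tested on simulated data.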

Additional observations from a re-analysis of the deposited data

Results flagged for a closer look

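In some groups of 6 mice the highest or lowest library stood apart from the others by most of the range of its group. Among 294 groups checked 19 had such a library, and chance gives about 1 in 20 groups. Among genes that fell with ORX the values were 75.7 CPM for *Spns2* in sham R5 (others 50.9 to 57.9), 474 CPM for *Hk2* in sham R1 (others 340.2 to 376), 137 CPM for *Dlat* in sham R5 (others 156 to 165), 26.4 CPM for *Rcan2* in ORX R6 (others 31.8 to 35.6), 546 CPM for *Ckmt2* in ORX R6 (others 639 to 685), 139.5 CPM for *Mpc2* in ORX R6 (others 158 to 162) and 63.5 CPM for *Pdgfra* in ORX R4 (others 72.6 to 78.6). Among genes that rose they were 14.4 CPM for *Gstm2* in sham R5 (others 23.3 to 29.0), 44.1 CPM for *Sesn1* in ORX R4 (others 54.6 to 58.4), 14.7 CPM for *Neu2* in ORX R2 (others 18.3 to 20.9), 2.39 CPM for *Adora1* in ORX R2 (others 4.87 to 6.69), 1162 CPM for *Ampd1* in ORX R2 (others 1292 to 1374) and 943 CPM for *Pink1* in ORX R6 (others 841 to 867). Of the genes not called, *Igf1* and *Efcab6* had such libraries, with 56.3 CPM for *Igf1* in sham R5 (others 36.9 to 40.2) and 15.8 CPM for *Efcab6* in ORX R3 (others 13.9 to 14.5). The summed CPM of the fibroblast markers was 2719.7 in sham R5 (others 1882 to 2158), that of the tendon markers 959.6 in sham R5 (others 323 to 538) and that of the T and B cell marker 2.05 in ORX R5 (others 1.19 to 1.38). The score on the first principal component was −12.7 in sham R6 (others −23.2 to −19.7).

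The difference between the ORX responses of the genotypes (KO minus WT, log2) passed the edgeR test at q ≤ 0.05 for 4 genes. It was 0.53 for *Ttll7* (q = 1.1e-04), 0.76 for *Spns2* (q = 0.025), 1.36 for *Snora78* (q = 0.024) and −0.44 for *Efcab6* (q = 0.026). This count was 38 without KO-ORX R3, 24 without ORX R2 and 2 without ORX R4.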

How the results depend on the processing

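No named gene reversed its direction under the 20 alternatives, and 96 of 129 stayed on their side of the threshold in every one. At least 1 alternative ended the call of 30 of them and gave a call to 3. Library-size scaling called 354 genes lower in place of 597, and 54.4% of its calls were higher against 37.5%, with 4 genes in the same direction as DHT in place of 9. At a threshold of 0.05 in place of 0.01, 1735 genes were called in place of 955 (743 higher and 992 lower in place of 358 and 597), 1925 in KO in place of 975, and 3078 with DHT in place of 1914, with 958 opposite and 21 in the same direction in place of 565 and 9. The 4 genes of the interaction became 120 with DESeq2, 10 with limma-voom and 1 at 0.01. The fits with no filter gave the same counts, since the filter removed 0 genes. The cause of these shifts was not tested. Leaving out 1 library at a time gave 732 to 867 calls (267 to 338 higher, 455 to 560 lower), 589 to 1116 in KO and 2 to 38 for the interaction (WT or KO libraries left out, the latter added after seeing the data), 1607 to 1835 with DHT, and 486 to 558 opposite and 5 to 8 in the same direction as DHT.

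With the replicate number as a replicate block 934 genes were called (351 higher and 583 lower), 914 in KO and 5 for the interaction. Same-numbered libraries had correlations of their deviations from −0.121 to 0.165, 3 of 6 over 0.1, and 5 of 12 libraries correlated best with their own number, so the numbers were not taken as pairs.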

Other observations

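Genes called with ORX were in some places next to each other on the chromosome. Of 17411 pairs of adjacent tested genes 103 (0.592%) had both members called, against 0.297% of all possible pairs of these genes, adjacent or not. In 6 of the 103 pairs exons overlap, so that reads could be shared. Of the other 97 pairs 80 (82.5%) changed in the same direction, 54 lower and 26 higher, and 17 in opposite directions. Of all possible pairs of called genes 53.1% had the same direction, and the difference from neighbours was not tested. The following pairs were chosen after their values were seen. Log2 fold changes were −1.95 for *Plcxd3* and −4.37 for *C7*, in a further pair −5.26 for *Slc15a5* and −1.36 for *Mgst1*, and in the last −2.18 for *Amd1* and −1.63 for *Cdk19*. Among risers they were 2.27 for *Chil1* and 2.98 for *Mybph*, *Adora1* and *Myog* being the next genes along, at 2.43 and 0.80. Order along the chromosome was taken from a GRCm38 annotation, and whether neighbours share reads beyond annotated exons was not tested.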
